A study of Mus musculus with 72 samples.

Results

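The 9 adipogenic transcription factors Pparg, Cebpa, Cebpb, Cebpd, Klf15, Ebf1, Ebf2, Zfp423 and Foxp1 were followed in the epididymal white adipose tissue (eWAT), liver and pituitary of 24 male FVB.129P2 mice. They were chosen by symbol, and each of the 9 names matched 1 row among the 55416 genes of the count table. The dams of FED mice had free access to food, and the dams of CR20 mice received 20% less of it from embryonic day 15 until the end of lactation. From 8 weeks of age the offspring were given food of 10% fat (CTRL) or of 45% fat (HFD) for 10 weeks, the time on the diet of the sequenced males (the labels also name 16 weeks). The groups FED-CTRL, FED-HFD, CR20-CTRL and CR20-HFD held 6 mice each, every mouse gave 1 library per tissue, and no litter is named in the labels, so that p-values cover the spread between these mice and littermates cannot be told apart from unrelated mice. Total counts ranged from 11589675 to 22364963 in eWAT, from 9842813 to 19928212 in liver and from 18299494 to 27601208 in the pituitary.

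White fat cells arise when precursor cells commit to the lineage and then switch on a cascade of transcription factors. The zinc finger factor Zfp423 and the early B cell factors Ebf1 and Ebf2 mark and prime committed precursors. The bZIP factors Cebpb and Cebpd act early after the hormonal stimulus and help to switch on Cebpa and Pparg, a nuclear receptor for fatty acid ligands that is required for fat cell formation. Pparg and Cebpa then sustain each other and the lipid genes of the mature cell, with Klf15, a Kruppel-like factor that is also a fasting and glucocorticoid response gene in liver. Foxp1 is a forkhead factor that acts mostly as a repressor and is expressed in many cell types, among them immune cells.

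The labelled tissues carried their defining markers. Summed over the markers of a cell type, the counts scaled to library size (CPM) of 5 hepatocyte genes were at least 69095 in every liver library, those of 5 pituitary genes at least 231820 in every pituitary library and those of 7 adipocyte genes at least 10127 in every eWAT library. In eWAT 2 libraries stood apart. In FED-HFD mouse 23 the adipocyte sum was 10127 CPM and the sum of 10 macrophage genes 13834 CPM, against 22862 to 30692 and 2779 to 5339 CPM in the other 5 FED-HFD mice. In CR20-CTRL mouse 5 the adipocyte sum was 12921 CPM against 26985 to 42344 CPM in the rest of its group, while its macrophage sum of 1832 CPM lay within the 1106 to 2647 CPM of that group. The sum of 5 epididymis genes was 133 CPM in CR20-CTRL mouse 4, 52 CPM in CR20-CTRL mouse 5 and 26.4 CPM in CR20-HFD mouse 6, and at most 0.0495 CPM in the other eWAT libraries.

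Sequences before the starts of these genes were searched for the letters of motifs, since C/EBP factors and Pparg are known to act on their own and each other's genes. RefSeq windows of 300 bases, of which 250 precede the start, were matched for 7 of the 9 genes, at 13 starts, and no window was matched for Cebpd and Ebf2. The 250 bases before 3 of the starts are printed 5′ to 3′ on the strand of the gene (build GRCm38.p6), with letters that match a searched motif in capitals. They are the most downstream of 3 starts of Pparg, the start of Cebpa and the middle of 3 starts of Foxp1.
Pparg, chr6:115421816-115422065, plus strand: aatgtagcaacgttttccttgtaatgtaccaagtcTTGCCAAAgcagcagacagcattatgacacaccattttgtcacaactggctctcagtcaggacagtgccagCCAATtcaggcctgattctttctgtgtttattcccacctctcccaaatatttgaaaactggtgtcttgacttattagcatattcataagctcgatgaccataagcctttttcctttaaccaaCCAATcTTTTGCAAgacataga
Cebpa, chr7:35119043-35119292, plus strand: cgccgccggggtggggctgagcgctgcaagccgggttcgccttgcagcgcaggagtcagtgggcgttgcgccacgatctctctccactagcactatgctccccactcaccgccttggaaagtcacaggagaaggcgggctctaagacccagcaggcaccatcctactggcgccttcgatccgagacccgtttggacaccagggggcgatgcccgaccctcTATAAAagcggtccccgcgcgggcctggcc
Foxp1, chr6:99266516-99266765, minus strand: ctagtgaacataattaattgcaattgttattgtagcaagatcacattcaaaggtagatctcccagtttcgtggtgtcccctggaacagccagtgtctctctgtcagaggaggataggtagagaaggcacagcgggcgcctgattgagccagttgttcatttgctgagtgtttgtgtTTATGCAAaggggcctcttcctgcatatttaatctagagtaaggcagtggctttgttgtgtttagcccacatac

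The Pparg window held 2 matches to the C/EBP motif TTGCNNAA, which began 215 and 16 bases before the start, and 2 to CCAAT, 144 and 22 bases before it. The Foxp1 window held 1 C/EBP match, 74 bases before the start. In the Cebpa window the only match was to the TATA motif TATAAA, 30 bases before the start. Among the windows not printed, that of Klf15 held 3 matches to the E-box CACGTG and 1 to CCAAT, and the upstream of 2 windows of Zfp423 held 2 C/EBP matches. Each of the other 2 Pparg windows held 1 nuclear receptor motif AGGTCA, 28 and 9 bases before the start. The EBF motif CCCNNGGG was matched in the Cebpb window (208 bases before the start) and the most upstream Foxp1 window (114 bases). The downstream Zfp423 window held 1 EBF match (28 bases before the start) and 1 AGGTCA (34 bases). Further TATA and CCAAT matches are not listed. Both strands were searched, and of all 32851 windows 10.8% held TTGCNNAA, 37.4% CCAAT, 13.6% TATAAA, 7.15% CACGTG, 13.7% the EBF motif CCCNNGGG, 16.3% the nuclear receptor motif AGGTCA, 6.85% the glucocorticoid receptor motif ACANNNTGT, 3.56% the KLF motif CCACACCC and 1.79% the cyclic AMP response element TGACGTCA. The last 3 had no match in the windows of these genes. The windows of Ebf1 held no match to any of these motifs. A match is a description of letters only, and no measurement of binding was made.

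The members differed in level by a wide margin and ranked differently in each tissue. Levels between genes are given as RPKM, which divides the scaled reads by exon length, with scaling over all 72 libraries. In eWAT the order of the medians was Cebpa, Pparg, Ebf1, Cebpb, Klf15, Zfp423, Ebf2, Cebpd and Foxp1. Cebpa ranged from 90.5 to 271 RPKM (median 200, n = 24) and Pparg from 9.87 to 47.4 RPKM (median 31.5), and the 2 ranges did not overlap. Ebf1 (median 8.93 RPKM), Cebpb (8.05), Klf15 (7.96) and Zfp423 (6.87) followed. Their ranges overlapped, and neighbours among them changed places from library to library, since Ebf1 was above Cebpb in 15 of 24 libraries, Cebpb above Klf15 in 11 and Klf15 above Zfp423 in 16. Ebf2 (median 2.26 RPKM) and Cebpd (2.25) were as close, and Foxp1 was lowest at a median of 1.29 RPKM and below Cebpd in 21 libraries. This last rank depends on the exon length, which was the longest of the 9 for Foxp1 (16169 bases). In CPM, its group medians in eWAT (23.7 to 33.2) lay above those of Cebpd (9.74 to 12) and Cebpb (12 to 18).

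In liver the order was led by Cebpa, Klf15 and Cebpb, and the precursor factors were near or at 0. Cebpa had a median of 205 RPKM (119 to 383, n = 24), Klf15, which drives amino acid breakdown in fasting liver, 34.5 RPKM (24.1 to 51.6) and Cebpb 20 RPKM (8.43 to 48.6). Cebpd (median 1.73 RPKM), Foxp1 (0.892) and Pparg (0.666) followed with overlapping ranges. Zfp423 and Ebf1 summed to 58 and 65 reads over the 24 liver libraries, with 2 and 4 libraries at 0. No read of Ebf2 was counted in any liver library, which allows up to 3 reads over the 24 libraries, or 0.0114 CPM (counting error only). In the pituitary Cebpd led with a median of 8.31 RPKM (5.75 to 10.6), without overlap with the Zfp423 range of 2.27 to 3.99 RPKM (median 2.85). Cebpb (2.31 RPKM), Klf15 (2.1), Foxp1 (1.75) and Cebpa (1.75) overlapped there, and Pparg (0.151), Ebf1 (0.115) and Ebf2 (0.0818) were lowest.

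**Figure D1:**
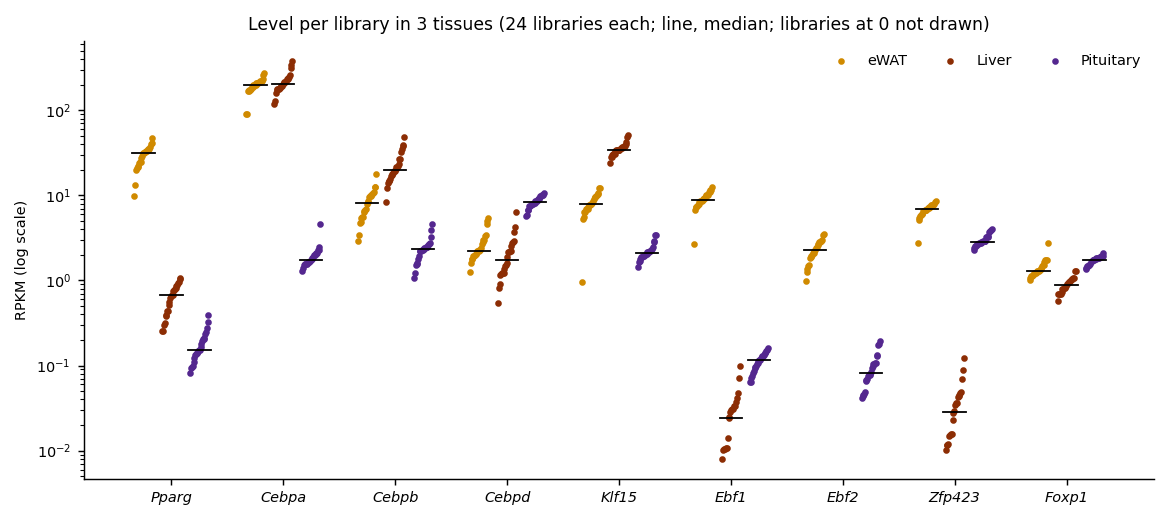
Level of each of the 9 factors in RPKM (log scale) in the 24 libraries of eWAT, liver and pituitary. Points are libraries, lines are medians and libraries at 0 are not drawn, so that Ebf2 has no liver points. Cebpa lay at similar heights in eWAT and liver (medians 200 and 205 RPKM), while Pparg, Ebf1 and Ebf2 were high in eWAT alone.

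Between tissues, 7 of the 9 factors differed between eWAT and liver and 9 of 9 between eWAT and pituitary at an adj. p-value under 0.05, where 83.5% and 86.8% of all 19210 genes tested did so. Pparg was 46.2-fold higher in eWAT than in liver (log2FC 5.53 ± 0.156 SE, adj. p-value 5.08e-43) and 165-fold higher than in the pituitary (7.37 ± 0.17, 7.16e-48). Ebf1 was 369-fold and 80.2-fold higher, and Zfp423 was 208-fold higher than in liver but only 2.26-fold higher than in the pituitary (log2FC 1.17 ± 0.0869, adj. p-value 4.18e-20). Ebf2 was 24.1-fold higher than in the pituitary, and at least 1510-fold higher than in liver when the liver is set to 3 reads over the 24 libraries.

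The C/EBP factors, Klf15 and Foxp1 had other orders. Cebpa was 101-fold higher in eWAT than in the pituitary (log2FC 6.66 ± 0.127, adj. p-value 1.26e-52), and its difference from liver was not called (log2FC -0.13 ± 0.0983, adj. p-value 0.2), with a sign that turned to 0.04 by limma voom. Cebpb was 2.73-fold and Klf15 4.43-fold higher in liver than in eWAT (adj. p-values 2.48e-13 and 1.86e-27), and both were higher in eWAT than in the pituitary, by 3.5-fold and 3.63-fold. Cebpd was 3.23-fold higher in the pituitary than in eWAT (adj. p-value 4.17e-15). Its difference between eWAT and liver was not called (log2FC 0.32 ± 0.167, adj. p-value 0.0694) but passed in 3 of 4 alternatives, with the mouse as a replicate block (0.41 ± 0.139, adj. p-value 0.00679), by limma voom (0.63, 0.000401) and with no filter (0.39, 0.0358). With the size factors of DESeq2 it was 0.27 (0.143). Foxp1 was 1.55-fold higher in eWAT than in liver and 1.25-fold higher in the pituitary than in eWAT (adj. p-values 1.52e-12 and 2.54e-05). The scaling of libraries between tissues of such different make-up sets the zero of these differences.

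In eWAT, the first question was how the factors responded to the HFD in FED offspring. Foxp1 was upregulated and no other factor was called, so that 1 of 9 factors passed an adj. p-value of 0.05, beside 10.5% of the 15964 genes tested. At an unadjusted p-value under 0.05 there were 5 of 9 (Foxp1 higher, and Pparg, Cebpa, Klf15 and Ebf2 lower) beside 25.7% of all genes. The median log2FC of the 9 factors was -0.33, with 6 below 0, and that of all genes 0.00. In this bulk tissue, fewer cells of a type and less RNA per cell cannot be told apart. The macrophage sum moved with this comparison, from 1549 to 2308 CPM in FED-CTRL to 2779 to 13834 CPM in FED-HFD, and the adipocyte sum was 28272 to 34219 CPM in FED-CTRL and 10127 to 30692 CPM in FED-HFD. The part of these cells in the results was not tested.

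Foxp1 measured lowest 22.3, median 24.1 and highest 29.7 CPM in FED-CTRL, and 27.8, 33.2 and 54.7 CPM in FED-HFD. The FED-HFD values lay above those of FED-CTRL but for an overlap of FED-CTRL mouse 24 (29.7 CPM) with FED-HFD mice 10 and 40. The log2FC was 0.52 ± 0.154 (1.43-fold, adj. p-value 0.0323), and an exact permutation test gave p = 0.00649 (two-sided, 6 against 6 mice, all splits, as in all such tests here). The highest value was that of mouse 23, and without it the log2FC was 0.35 and the adj. p-value 0.116, with 0 factors called. Without CR20-CTRL mouse 5 as well, Foxp1 passed again (log2FC 0.36, adj. p-value 0.0286), and Cebpa and Klf15 passed with it. The share of all genes that passed there is not given here. The call was also lost without FED-HFD mouse 12 or without any of FED-CTRL mice 14, 15, 16, 41 and 42 (adj. p-values 0.0508 to 0.0759). Within the ranges of animal number under 20, 20 to 39 and 40 and above, FED-HFD exceeded FED-CTRL by 0.39, 0.88 and 0.36 in mean log2 CPM. These values set 4 against 3, 1 against 1 and 1 against 2 mice, and the middle value is that of mouse 23 against FED-CTRL mouse 24.

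Pparg, the master regulator, measured 213, 296 and 351 CPM (lowest, median, highest) in FED-CTRL and 83.5, 196 and 294 CPM in FED-HFD. The groups overlapped, with 5 of 6 FED-HFD mice below all but 1 FED-CTRL mouse. The log2FC of -0.58 ± 0.241 was not called (adj. p-value 0.127, exact permutation p = 0.0195). Cebpa, its partner in the mature fat cell, measured 608, 666 and 835 CPM in FED-CTRL and 290, 547 and 581 CPM in FED-HFD. The 2 groups did not overlap, which held for 1 of 9 factors and for 6.76% of all genes tested, and the exact permutation test gave the smallest p it can, 0.00216. In the fit over all genes the log2FC of -0.42 ± 0.172 did not pass (adj. p-value 0.125), and limma voom with quality weights called it (adj. p-value 0.0147). Its log2FC was -0.30 without mouse 23 (adj. p-value 0.324) and -0.29 without mouse 23 and mouse 5 (0.0189).

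Klf15 measured 70.4, 78.6 and 109 CPM in FED-CTRL and 8.58, 57.6 and 77.2 CPM in FED-HFD. Mouse 23 was the low library at 8.58 CPM, with the other FED-HFD mice at 50.9 CPM or more. The log2FC was -0.70 ± 0.288 (adj. p-value 0.122, exact permutation p = 0.0108), and it was -0.48 without mouse 23 (adj. p-value 0.0908) and without mouse 23 and mouse 5 (0.0468).

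Of the early factors, Cebpb measured 6.27, 12 and 19.2 CPM in FED-CTRL and 12.1, 18 and 20.2 CPM in FED-HFD, with overlapping groups (log2FC 0.51 ± 0.325, adj. p-value 0.337, exact permutation p = 0.0519). Cebpd measured 5.67, 10 and 15.2 CPM in FED-CTRL and 7.4, 9.74 and 20.8 CPM in FED-HFD (log2FC 0.08 ± 0.29, adj. p-value 0.889), and only mouse 40 was above the FED-CTRL range. Each of these genes lies across a protein-coding gene on the opposite strand, Peds1 for Cebpb and Spidr for Cebpd, and the strand setting of the counting is not given in the sources used here. Foxp1 overlaps 4 genes on its own strand, among them the protein-coding Gm20696, and Ebf2 overlaps 5 non-coding genes on the opposite strand. The part of such overlaps was not tested.

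Among the precursor factors, Ebf2, which marks precursors of brown and beige fat, measured 14.2, 23.2 and 26.8 CPM in FED-CTRL and 8.95, 15.5 and 18.4 CPM in FED-HFD. The FED-HFD mice lay below 5 of the 6 FED-CTRL mice, and the log2FC of -0.59 ± 0.203 missed the threshold (adj. p-value 0.0652, exact permutation p = 0.0195). It passed by DESeq2 (adj. p-value 0.0425) and limma voom (0.0279), and its log2FC was -0.48 without mouse 23 (0.192). Ebf1 measured 95.4, 107 and 138 CPM in FED-CTRL and 31.4, 89.7 and 119 CPM in FED-HFD (log2FC -0.31 ± 0.204, adj. p-value 0.353). Ebf1 is also needed for B cells, and the sum of 5 B cell genes ranged from 5.58 to 58.9 CPM in FED-CTRL and from 4.77 to 103 CPM in FED-HFD. Zfp423 measured 54.6, 64.1 and 70 CPM in FED-CTRL and 22.4, 54.8 and 65.2 CPM in FED-HFD (log2FC -0.33 ± 0.162, adj. p-value 0.195). Without mouse 23 the log2FC of Ebf1 was -0.14 and that of Zfp423 -0.18. The sum of 7 stromal progenitor genes was 1285 to 1525 CPM in FED-CTRL and 1178 to 2103 CPM in FED-HFD. In mouse 23, lowest of its group for Ebf1, Ebf2 and Zfp423, that sum was 1543 CPM. The name precursor factors refers to their known role, and which cells of eWAT hold this RNA was not tested.

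**Figure D2:**
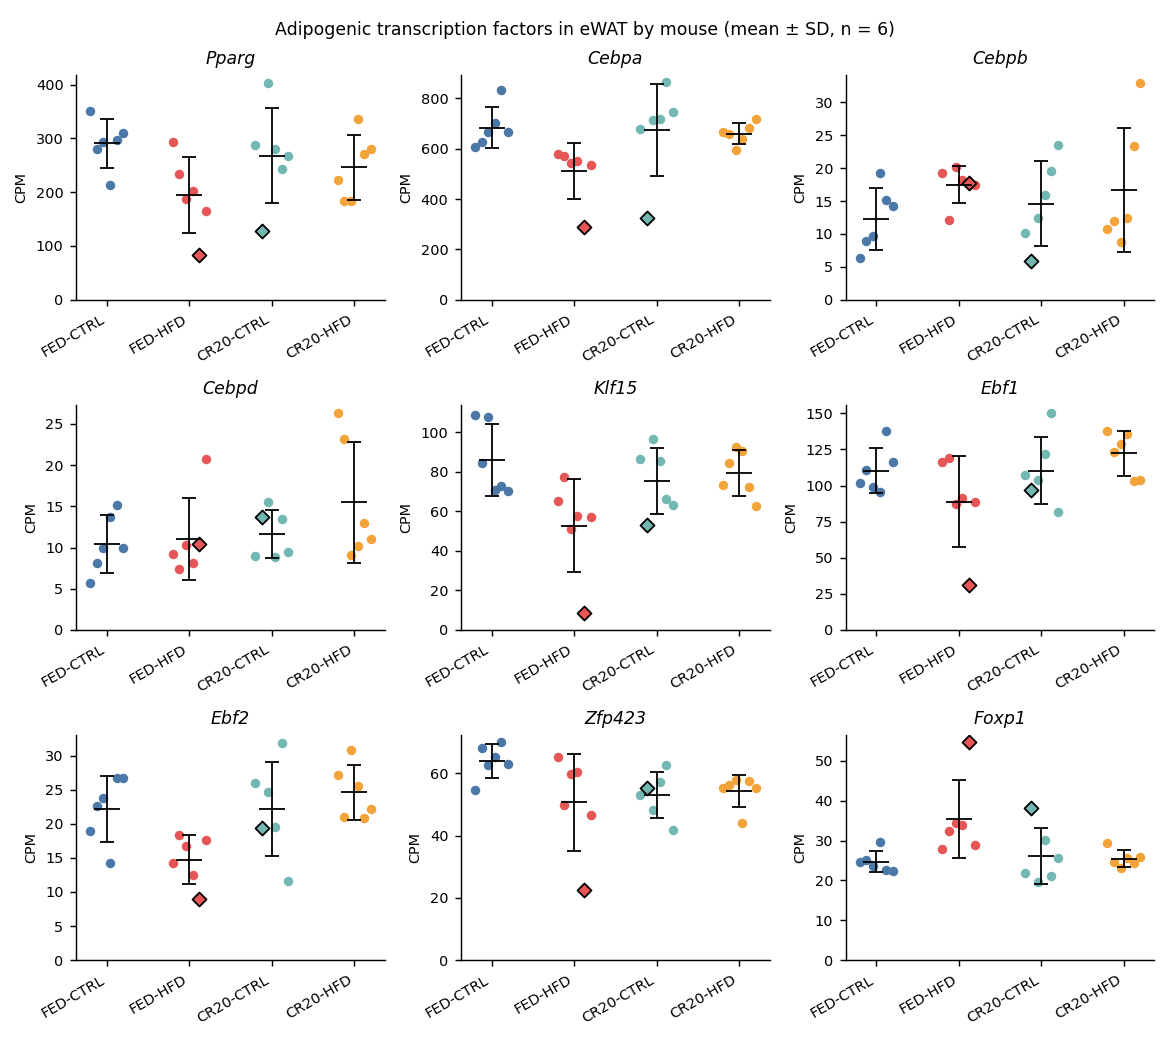
CPM of the 9 factors in each of the 24 eWAT libraries by group, with the mean and SD of 6 mice in black. Diamonds mark FED-HFD mouse 23 and CR20-CTRL mouse 5. Mouse 23 was lowest of its group for Pparg, Cebpa, Klf15, Ebf1, Ebf2 and Zfp423 and highest for Foxp1 (54.7 CPM).

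On the HFD, CR20 offspring differed from FED offspring in 2 of 9 factors in eWAT, beside 14.9% of all genes, with Ebf2 higher and Foxp1 lower in CR20-HFD. At an unadjusted p-value under 0.05, Cebpa and Ebf1 were higher as well, which made 4 of 9 beside 29.8% of all genes. The median log2FC of the 9 factors was 0.36, with 7 above 0, and that of all genes 0.02. This comparison shares the FED-HFD mice with the one above. Ebf2 measured 20.8, 23.9 and 30.9 CPM in CR20-HFD, all above the FED-HFD maximum of 18.4 CPM (log2FC 0.74 ± 0.203, 1.67-fold, adj. p-value 0.0175, exact permutation p = 0.00216, the smallest possible). Without mouse 23 its adj. p-value was 0.0523, with a log2FC of 0.63, and it was called in the other 23 fits that left out 1 mouse. Foxp1 measured 23.1, 25.2 and 29.3 CPM in CR20-HFD, overlapping FED-HFD through 1 mouse of CR20-HFD (log2FC -0.47 ± 0.155, 1.39-fold lower, adj. p-value 0.0404, exact permutation p = 0.00649). Its adj. p-value was 0.149 without mouse 23, so that 0 factors were called, and 0.056 to 0.0794 without FED-HFD mouse 12 or 13 or without any of CR20-HFD mice 7, 31, 32, 45 and 46. With both mouse 23 and CR20-CTRL mouse 5 left out, Ebf2, Foxp1 and Cebpa were called, and the share of all genes called there is not given here.

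Cebpa in CR20-HFD measured 594, 663 and 719 CPM and did not overlap FED-HFD, as did Ebf2, so that 2 of 9 factors did not overlap beside 6.66% of all genes. Its log2FC of 0.36 ± 0.172 was not called (adj. p-value 0.156, exact permutation p = 0.00216). Cebpa was called by limma voom with quality weights, the method of the study (log2FC 0.28, adj. p-value 0.0471), though below the study's minimum log2FC of 0.58. It was also called without CR20-CTRL mouse 5 (0.36, 0.0421), and was 0.25 without mouse 23 (0.351). Pparg measured 184, 247 and 336 CPM in CR20-HFD (log2FC 0.34 ± 0.24, adj. p-value 0.356), Klf15 62.8, 79 and 92.6 CPM (0.59 ± 0.288, 0.173) and Ebf1 103, 126 and 138 CPM (0.46 ± 0.204, 0.13). Without mouse 23 these 3 values were 0.19, 0.37 and 0.29. The values of Pparg and Klf15 in CR20-HFD overlapped those of both FED groups. Cebpb measured 8.71, 12.2 and 32.9 CPM (log2FC -0.06 ± 0.324), Cebpd 9.15, 12 and 26.3 CPM (0.48 ± 0.29) and Zfp423 44.2, 55.9 and 57.9 CPM (0.10 ± 0.162), and none of these was called (adj. p-values 0.275 to 0.919). The macrophage sum was 1230 to 2309 CPM in CR20-HFD, below every FED-HFD mouse, and the adipocyte sum 31979 to 37148 CPM, above every FED-HFD mouse. Their part in these differences was not tested. Within the 3 ranges of animal number, CR20-HFD exceeded FED-HFD in Ebf2 by 0.64, 1.64 and 0.28 and differed in Foxp1 by -0.25, -1.16 and -0.21 in mean log2 CPM, with 1 FED-HFD mouse in each of the last 2 ranges.

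In CR20 offspring the HFD changed 0 of 9 factors in eWAT, beside 0% of all genes (edgeR), and 0 also at an unadjusted p-value under 0.05, where 6.03% of all genes passed. DESeq2 and limma voom called 0 as well. The log2FC ranged from -0.12 for Pparg to 0.40 for Cebpd, and the 95% interval of the Pparg change was -0.59 to 0.35. No factor separated the 2 groups without overlap, which 0.113% of all genes did. Between the 2 CTRL groups, too, 0 of 9 factors were called by edgeR, DESeq2 or limma voom, beside 0% of all genes, and 0 of 9 at an unadjusted p-value under 0.05, beside 7.39%. Groups without overlap numbered 0 of 9 beside 0.244%. Zfp423 was the factor with the smallest p there, at 41.8, 54.2 and 62.8 CPM in CR20-CTRL (log2FC -0.27 ± 0.162, adj. p-value 0.831, exact permutation p = 0.0216), 1 of 36 such exact tests in eWAT. CR20-CTRL held the other low library for the late factors, and mouse 5 measured 127 CPM for Pparg and 324 CPM for Cebpa, below every other mouse of its group, and 38.2 CPM for Foxp1, above every other.

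The interaction asks whether the HFD response differed between CR20 and FED offspring. It was called for 0 of 9 factors beside 2.29% of all genes, and 0 by DESeq2 or limma voom. At an unadjusted p-value under 0.05 there were 2 of 9 beside 18.2% of all genes, namely Ebf2 (0.74 ± 0.286, adj. p-value 0.178) and Foxp1 (-0.55 ± 0.218, adj. p-value 0.189). The calls for Foxp1 in FED and not in CR20 offspring were therefore not shown to differ. The point values were above 0 for 7 of 9 factors, up to 0.78 ± 0.406 for Klf15 (adj. p-value 0.307), with a median of 0.38 against -0.02 over all genes. Without mouse 23 and mouse 5, Klf15 was 0.47, Pparg 0.16 in place of 0.46 and Cebpa 0.12 in place of 0.38. Ebf1 was 0.25 in place of 0.46, Zfp423 0.23 in place of 0.37, Ebf2 0.59 and Foxp1 -0.24. Cebpb and Cebpd moved away from 0, from -0.32 to -0.47 and from 0.32 to 0.35. Over both maternal groups together, the HFD called 0 of 9 factors beside 0.251% of all genes. At an unadjusted p-value under 0.05 it was 1 of 9, Foxp1 (0.25 ± 0.109, adj. p-value 0.25), beside 17.1%. DESeq2 called 0 and limma voom 1 (Foxp1, adj. p-value 0.0228). The shares of all genes called by these methods are not given here, so the counts do not set the factors apart.

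**Figure D3:**
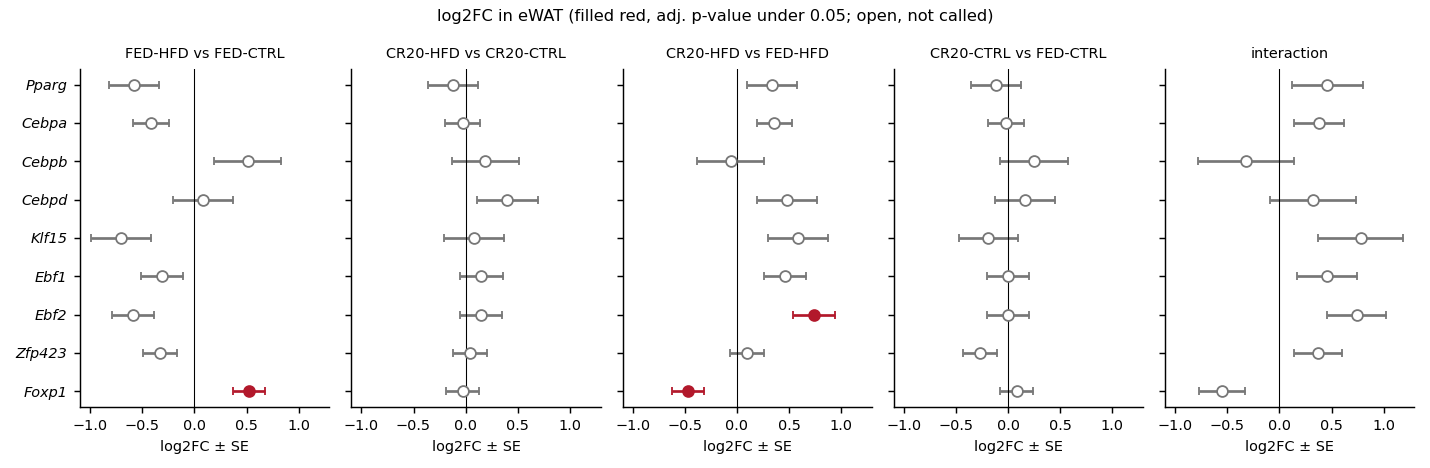
log2FC ± SE of the 9 factors in eWAT for the 4 group comparisons and for the interaction (the HFD effect in CR20 minus that in FED mice). Filled red points had an adj. p-value under 0.05, namely Foxp1 in FED-HFD vs FED-CTRL (0.52) and Ebf2 and Foxp1 in CR20-HFD vs FED-HFD (0.74 and -0.47).

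Partners, inhibitors and targets of the factors were taken from 3 lists chosen by textbook role, with earlier results of these data known. Of 23 partners in eWAT, 1 rose and 3 fell in FED-HFD against FED-CTRL, beside 10.5% of all genes called, with a median log2FC of -0.22 against 0.00 over all genes. The partner median was -0.15 without mouse 23. Egr2, an early activator of the cascade that macrophages also express, rose 4.63-fold (log2FC 2.21 ± 0.475, adj. p-value 0.00529). Rxra, the dimer partner of Pparg, fell by 0.47 on the log2 scale (adj. p-value 0.0387), Nfia, a nuclear factor I that opens chromatin with Pparg, by 0.56 (0.0178) and the glucocorticoid receptor Nr3c1 by 0.38 (0.0429). Egr2 was called in all 24 fits that left out 1 mouse, Rxra in 17, and Rxra and Nr3c1 were not called without mouse 23 (adj. p-values 0.0551 and 0.135). In CR20-HFD against FED-HFD, Nfia (0.53 ± 0.148, adj. p-value 0.019) and Klf4, a Kruppel-like activator (0.60 ± 0.185, 0.0315), were higher and Egr2 lower by 4.9-fold (adj. p-value 0.00278), which made 3 of 23 beside 14.9% of all genes. Egr2 was also the only partner called in the interaction, beside 2.29% of all genes (log2FC -2.80 ± 0.666, adj. p-value 0.0351), where it was called in 7 of the 24 fits that left out 1 mouse (adj. p-values 0.0151 to 0.0753).

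Of 16 inhibitors, 0 rose and 1 fell in FED-HFD beside 10.5% of all genes called, namely Hes1, an effector of Notch signalling (log2FC -0.79 ± 0.223, adj. p-value 0.0259), with a list median of -0.06. In CR20-HFD against FED-HFD, Hes1 (0.79 ± 0.224, adj. p-value 0.0205) and the Wnt ligand Wnt10b (1.36 ± 0.361, 0.0137) were higher, which made 2 of 16 beside 14.9% of all genes, and the list median was 0.24. Of 27 targets, 0 rose and 3 fell in FED-HFD, again beside 10.5% of all genes called, and 24 of the 27 had a log2FC below 0 (median -0.37). Without mouse 23 that median was -0.26. Fasn, the fatty acid synthase, fell 2.48-fold (log2FC -1.31 ± 0.353, adj. p-value 0.0195), Slc2a4, the insulin-dependent glucose transporter, 1.91-fold (0.0249) and Lpin1, a phosphatidate phosphatase, 1.61-fold (0.0441). Lpin1 was called in 6 of the 24 fits that left out 1 mouse. In CR20-HFD against FED-HFD, 2 targets were higher, Cfd, which encodes adipsin (2.81-fold, adj. p-value 0.0226), and Retn, which encodes resistin (2.03-fold, 0.0493, called in 3 of the 24 fits that left out 1 mouse), with 14.9% of all genes called and a list median of 0.32. That list median was 0.16 without mouse 23. Without mouse 23 and mouse 5, the called targets were 1 higher and 7 lower in FED-HFD against FED-CTRL and 4 higher and 0 lower in CR20-HFD against FED-HFD. In the same setting the called inhibitors were 0 higher and 2 lower in the first comparison and 3 higher and 1 lower in the second. The share of all genes called in that setting is not given here, so these counts are not set against it. In the HFD comparison of CR20 mice and in the comparison of the CTRL groups, 0 genes of the 3 lists were called. In the latter, 26 of the 27 targets had a log2FC below 0 (median -0.16, and -0.04 without mouse 23 and mouse 5).

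In liver, 6 of the 9 factors had enough reads to be tested, and Ebf1, Ebf2 and Zfp423 did not. None was called in the HFD comparison of FED mice (0.109% of 13787 genes), in that of CR20 mice (0.515%), between the HFD groups (0%), between the CTRL groups (0%), in the interaction (0%) or in the HFD comparison over both maternal groups (1.74%), and none by DESeq2 or limma voom. At an unadjusted p-value under 0.05 the factors numbered 0, 1, 1, 0, 0 and 2 of 6, beside 6.66%, 9.57%, 3.58%, 2.17%, 1.76% and 13.2% of all genes. Cebpa, a main regulator of liver metabolism, measured 330, 450 and 557 CPM (lowest, median, highest) in FED-CTRL, 224, 364 and 483 CPM in FED-HFD, 366, 432 and 768 CPM in CR20-CTRL and 247, 352 and 400 CPM in CR20-HFD. Its medians were lower on the HFD in both maternal groups with overlapping values. The log2FC was -0.59 ± 0.193 in CR20 mice (adj. p-value 0.253, exact permutation p = 0.00866) and -0.42 ± 0.136 over both maternal groups (adj. p-value 0.135).

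Cebpb measured 13.5, 22 and 41.6 CPM in FED-CTRL liver, 19.2, 27.7 and 39.7 CPM in FED-HFD, 9.07, 18.1 and 30.7 CPM in CR20-CTRL and 16.9, 20.7 and 53.1 CPM in CR20-HFD. The groups overlapped throughout, and the log2FC over both maternal groups was 0.46 ± 0.22 (adj. p-value 0.363). Pparg was higher in FED-HFD liver, at 3.92, 4.52 and 5.45 CPM, than in CR20-HFD, at 1.32, 3.14 and 4.46 CPM, and the difference of -0.66 ± 0.298 was not called (adj. p-value 1, exact permutation p = 0.00866). Cebpd, Klf15 and Foxp1 had unadjusted p-values of 0.0962 or more in every liver comparison. Genes of the partner and target lists did change there. Of 20 targets tested, 1 fell in FED mice, 2 in CR20 mice and 3 over both maternal groups, beside 0.109%, 0.515% and 1.74% of all genes called. Scd1, the stearoyl-CoA desaturase, fell 15.2-fold in FED and 41.9-fold in CR20 mice on the HFD (adj. p-values 0.00117 and 1.21e-05), and Slc2a4 fell 7.82-fold in CR20 mice (0.00415). The study had reported both as lower in liver on the HFD, and the lists were chosen with earlier results known. The count of targets beside the share of all genes is therefore no test of them. Over both maternal groups the lipogenic factor Srebf1 fell 2.27-fold (0.00694) and Fasn 4.04-fold (0.0202), and no inhibitor was called in liver. In the pituitary no gene of the 3 lists was called.

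In the pituitary all 9 factors were tested and 0 were called in any of the 6 comparisons, beside 0% of 16657 genes in all of them but the HFD comparison over both maternal groups, where it was 0.024%. DESeq2 and limma voom called 0 as well. At an unadjusted p-value under 0.05 the factors numbered 2 of 9 for the HFD in FED mice (9.64% of all genes), 1 for the HFD in CR20 mice (7.28%), 0 between the HFD groups (6.77%), 0 between the CTRL groups (17.3%), 0 in the interaction (11%) and 1 over both maternal groups (6.23%). These were low genes here. Ebf1 measured 0.7, 1.02 and 1.26 CPM in CR20-CTRL and 1.27, 1.47 and 1.61 CPM in CR20-HFD, which did not overlap, as held for 1 of 9 factors and 0.408% of all genes (log2FC 0.53 ± 0.232, adj. p-value 0.644, exact permutation p = 0.00216), from 14 to 38 reads per library. Pparg was 0.66 ± 0.313 higher and Ebf2 -0.80 ± 0.356 lower on the log2 scale in FED-HFD than in FED-CTRL (adj. p-values 0.502 and 0.459). The adipocyte sum reached 179 CPM in the highest FED-HFD library of the pituitary, with a group median of 26.9 CPM. It was at most 30.3 CPM in the other groups of this tissue, and its part in the Pparg difference was not tested. Cebpd, the leading factor of this tissue, stayed at 24.3 to 43.9 CPM in all 24 libraries, with log2FC values of -0.14 to 0.08.

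Between mice of the same group, the factors moved in a pattern in eWAT. After each group's mean log2 CPM was taken away, 18 of 36 pairs of factors correlated over the 24 libraries at an adj. p-value under 0.05 (permutation test, 100000 resamples, Benjamini-Hochberg over the 36 pairs). All 12 positive pairs but 1 lay among Pparg, Cebpa, Klf15, Ebf1, Ebf2 and Zfp423, and the 6 negative pairs were those of Foxp1 with each of these 6 genes. Pparg and Cebpa had r = 0.73 (permutation p = 0.00058, adjusted 0.00292) and rho = 0.42 (0.0432, adjusted 0.131), and r was 0.23 without the 2 libraries farthest from the median of Pparg, so that this relation rested on them. Without the 2 farthest libraries, 1 of the 18 pairs kept an adj. p-value under 0.05, Ebf1 with Ebf2 (r = 0.69 over all and 0.64 without 2, permutation p = 0.00014 and 0.00131, adjusted 0.00144 and 0.0472, and rho = 0.67). Ebf2 with Foxp1 had r = -0.59 and rho = -0.61 (permutation p = 0.00343 and 0.00197, adjusted 0.0123 and 0.0355), and r = -0.56 without 2. Ebf1 with Zfp423 had r = 0.82, and 0.59 without 2 (permutation p = 0.00016 and 0.00401, adjusted 0.00144 and 0.0647).

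Cebpb and Cebpd stood outside this pattern. Cebpb correlated with Cebpa alone (r = 0.53, permutation p = 0.00624, adjusted 0.0187, rho = 0.57, adjusted 0.0485, and r = 0.57 without 2 libraries). Without centring on the group means, that r was 0.27 (adjusted 0.299), and 21 pairs passed, 17 of them among the 18. Cebpd had no pair that passed, and its largest r was -0.30, with Pparg (permutation p = 0.152, adjusted 0.238). The factors share their libraries, so that a library's mix of cells enters all pairs at once.

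**Figure D4:**
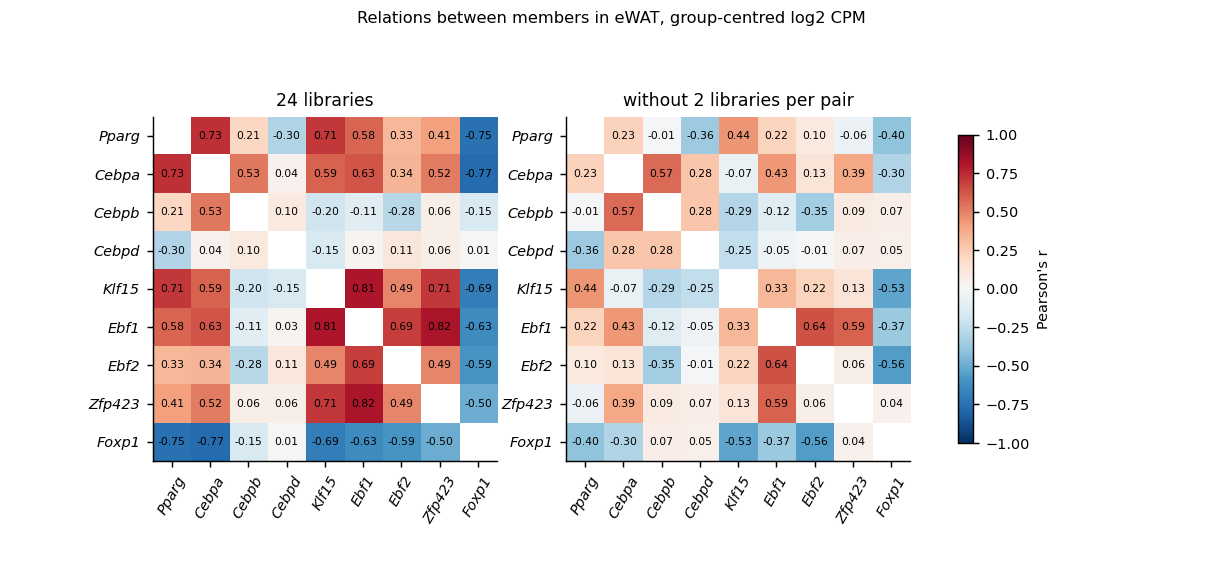
Pearson's r between the 9 factors in eWAT, from log2 CPM centred on group means, over 24 libraries (left) and without the 2 libraries farthest from the median of the first-listed factor of each pair (right). The Foxp1 row is negative against the 6 late and precursor factors on the left, and Ebf1 with Ebf2 (0.64) is the 1 of the 18 pairs that kept an adj. p-value under 0.05 on the right.

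Among 14059 genes with a mean over 1 CPM in eWAT, those most like each factor are given as a description. Pparg was closest to Atl2, Dmrt2 and C9orf72 (r = 0.90 to 0.91 over 24 libraries), Cebpa to Fah, Phlda3 and Gnpat (0.94 to 0.95), and Klf15 to Klhdc7a, Ivd and Gcdh (0.92 to 0.94). Ebf1 was closest to Fzd4, Plin4 and Rasgrf2 (0.94 to 0.96), Ebf2 to Gstt2, Acot4 and Pdk2 (0.83 to 0.85) and Zfp423 to Kiss1r, Adcy6 and Map3k6 (0.90 to 0.93). Foxp1 was closest to Plekhm3, Pip5k1c and Frmd4a (0.91 to 0.93), Cebpb to Spon2, Hilpda and Nog (0.78 to 0.82) and Cebpd to Errfi1, Lrrc8a and Gm17300 (0.66 to 0.72). Without mouse 23 the 3 values for Klf15 were 0.74 to 0.77, those for Zfp423 0.77 to 0.80 and those for Cebpa 0.93. CR20-CTRL mouse 5, the low library of its group for Cebpa, was still included there.

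Over all groups together, Cebpb in eWAT was higher in mice with a high animal number in the labels, though not in every group. It measured 5.88, 10.8 and 20.2 CPM (lowest, median, highest) in the 11 mice numbered under 20, 8.71, 12.5 and 19.2 CPM in the 5 mice numbered 20 to 39, and 14.3, 18.5 and 32.9 CPM in the 8 mice numbered 40 and above. In FED-HFD the mean log2 CPM was 4.10, 4.16 and 4.13 in the 3 ranges, and in FED-CTRL the middle range was highest (3.05, 4.27 and 3.89). In CR20-HFD its 2 mice of the last range were at 23.4 and 32.9 CPM and the other 4 at 12.5 CPM or less. The FED-HFD group had 4 of 6 mice numbered under 20, where it exceeded FED-CTRL by 1.05 in mean log2 CPM (4 against 3 mice), while the differences in the other 2 ranges were -0.11 (1 against 1) and 0.24 (1 against 2). With the range as a covariate, the log2FC of Cebpb in FED-HFD against FED-CTRL was 0.74 in place of 0.51 (adj. p-value 0.0583). In liver Cebpd had a mean log2 CPM of 2.77 ± 0.73 (SD, n = 11) in the first range, 2.29 ± 0.39 (n = 5) in the second and 1.79 ± 0.76 (n = 8) in the last. What the number stands for, such as a date or a litter, is not given in the sources used here, and its part was not tested further.

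**Figure D5:**
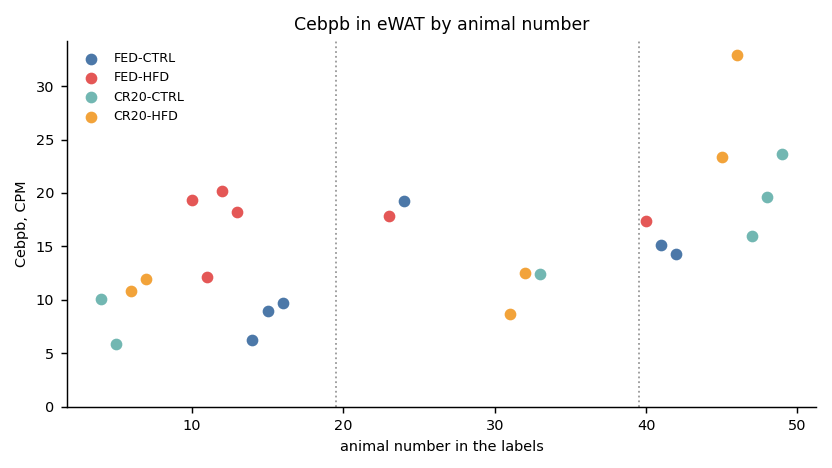
CPM of Cebpb in the 24 eWAT libraries against the animal number of the labels, with the groups in colour and dotted lines between the 3 ranges of number. The 8 mice numbered 40 and above were all at 14.3 CPM or more, and 8 of the 11 mice numbered under 20 were at 12.1 CPM or less.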

How the data were processed

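RNA was sequenced from eWAT, liver and pituitary of 24 mice. The authors trimmed the reads with Trimmomatic, aligned them to GRCm39 with STAR and deposited counts of reads per gene from featureCounts (Subread), not normalized. The library kit is named in different ways in the sources, and the strand setting of the counting is not given in the sources used here. Totals per library ranged from 9842813 to 27601208 counts, and intervals and floors cover counting error only.

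The deposited counts were tested per tissue with edgeR 4.0.16 (R 4.3.3) by quasi-likelihood over all 24 libraries, with TMM scaling and the filterByExpr filter. P-values were adjusted by Benjamini-Hochberg over all genes tested, and a gene was called at an adj. p-value under 0.05. The tissues were compared over all 72 libraries. CPM is given per tissue, log2 CPM with a prior count of 2, and RPKM by the length of the union of exons. Single factors were also tested by two-sided exact permutation (all splits of 12 mice, scipy 1.17.1). The fits were tested on simulated data.

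The members, gene lists, markers and motifs were chosen with earlier results of these data known. All 9 factors are named, from each list up to 3 called genes with the smallest p in each direction of a comparison, and the 3 genes most correlated with each factor in eWAT. Alternatives were limma voom (3.58.1) with quality weights, as in the methods of the study, DESeq2 (1.42.0), edgeR scaled by the size factors of DESeq2, all genes unfiltered, a minimum of 1 CPM in 6 libraries, only the groups compared, the range of animal number as covariate, the call rule of the methods (adj. p-value under 0.055 and absolute log2FC of at least 0.58) and each mouse left out. Leaving out both eWAT libraries that stood apart was chosen after seeing the data. The groups of a tissue hold different mice, and the tissues of a mouse are paired through the animal number in the labels. Correlations of deviations from group means between 2 tissues of a mouse ran from -0.21 to 0.32.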

Additional observations from a re-analysis of the deposited data

Results flagged for a closer look

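In 12 of 96 sets of values the highest or lowest log2 CPM lay apart from the other 5 values by Dixon's criterion. A set is 1 factor in the 6 mice of a group in 1 tissue. Chance alone meets the criterion in about 1 in 20 sets taken singly. The sets share libraries, as below for mouse 23, so their number is not set against that share. In eWAT of FED-HFD mouse 23, Cebpa was at 8.18 (the other mice 9.07 to 9.18), Klf15 at 3.12 (5.67 to 6.27), Ebf1 at 4.98 (6.45 to 6.90), Zfp423 at 4.49 (5.55 to 6.03) and Foxp1 at 5.78 (4.80 to 5.11). This is the library with the highest macrophage sum and the lowest adipocyte sum. In CR20-CTRL mouse 5, the other library that stood apart, eWAT Cebpa was at 8.34 (9.41 to 9.76).

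Single values stood apart in other libraries too. In eWAT these were Cebpb at 3.61 in FED-HFD mouse 11 (4.13 to 4.34), Cebpd at 4.38 in FED-HFD mouse 40 (2.91 to 3.40) and Zfp423 at 5.47 in CR20-HFD mouse 32 (5.79 to 5.86). CR20-HFD mouse 32 was also low for liver Foxp1 at 2.81 (3.53 to 3.95) and for pituitary Cebpb at 1.12 (1.75 to 2.06). Pituitary Cebpa was at 3.76 in FED-HFD mouse 10 (2.08 to 2.64).

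The HFD response of Egr2 in eWAT differed between CR20 and FED mice by -2.80 on the log2 scale (interaction, edgeR adj. p-value 0.0351). It was 0.147 by limma voom, and 17 of the 24 fits that left out 1 mouse did not call it.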

How the results depend on the processing

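The number of factors called in eWAT in FED-HFD against FED-CTRL (1) was 0 with the call rule of the methods, 2 by DESeq2 (Foxp1 and Ebf2), 5 by limma voom (Pparg, Cebpa, Klf15, Ebf2 and Foxp1), 3 without both libraries that stood apart, and 0 to 2 with 1 mouse left out. In CR20-HFD against FED-HFD (2) it was 1 with the call rule of the methods, 1 with no filter and 1 with only the groups compared, 3 by limma voom and 3 without both libraries, where Cebpa was called too, and with 1 mouse left out it was 0 (without FED-HFD mouse 23) to 3 (without CR20-CTRL mouse 5). Over both maternal groups (0) it was 1 by limma voom and 1 without both libraries. The counts of liver and pituitary were 0 under every alternative run. The counts in eWAT are given without the share of all genes called in each setting, so they do not set the factors apart. By limma voom in FED-HFD against FED-CTRL, Klf15 (-0.56), Ebf2 (-0.55), Pparg (-0.47) and Cebpa (-0.32) were below 0.58 in size. Foxp1 was at most 0.54 there in any setting other than 1 mouse left out. The call rule of the methods would thus call none of these 5 by limma voom. Signs turned under at least 1 alternative for some factors in every comparison within a tissue but the eWAT interaction, among them 6 of 9 in eWAT CR20-HFD against CR20-CTRL, 4 of 6 in the liver interaction and 3 of 9 in pituitary FED-HFD against FED-CTRL, with main values of at most 0.31. In the comparisons with a call, Cebpd in FED-HFD against FED-CTRL was -0.02 by limma voom and -0.20 to 0.22 with 1 mouse left out, where it was -0.04 without FED-CTRL mouse 14. Cebpb in CR20-HFD against FED-HFD was -0.37 to 0.07 with 1 mouse left out, with 0.01, 0.02, 0.04 and 0.07 without CR20-HFD mouse 32, 7, 6 or 31. Zfp423 there was -0.04 by limma voom, -0.05 without both libraries and -0.04 to 0.18 with 1 mouse left out. Cebpa in eWAT against liver was 0.04 by limma voom. Causes were not tested. The replicate block of the tissue comparison, in which the mouse pairs the libraries, called Cebpd in eWAT against liver (log2FC 0.41, adj. p-value 0.00679) and changed no other tissue call. Over the single-gene values followed one by one (all factors in the eWAT HFD comparison of FED mice, CR20-HFD against FED-HFD, the interaction and the tissue comparisons, other factors only at an unadjusted p-value under 0.05, and the called list genes), 1300 values with 1 mouse left out kept direction and call, 5 gained a call, 7 reversed and the rest lost a call, and under the other alternatives 470 kept both, 13 gained a call, 22 lost one and 4 reversed. Low counts limit Ebf1, Ebf2 and Zfp423 in liver and Pparg, Ebf1 and Ebf2 in the pituitary.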
